A study of Homo sapiens with 12 samples.

Results

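Nilotinib was compared with its solvent DMSO in K562, an established human line of chronic myeloid leukaemia that carries the BCR-ABL1 fusion. The 8 arrays were chosen by their titles, 4 of cells given 0.05 µM nilotinib (also called AMN107) for 24 h and 4 of cells given DMSO for 24 h, out of 12 arrays in all. The other 4 arrays were of cells given 0.5 µM imatinib, and they enter here only through the shared estimate of the spread between arrays and through the values set beside those of nilotinib at the end. Per the labels, the dose of nilotinib was the IC50, the concentration at which the measured response is inhibited midway,, and all cells were grown in RPMI with fetal bovine serum. Total RNA was amplified from its 3' end with biotin as the label and read on Affymetrix expression arrays, on which a gene is covered by 1 or more probe sets. The labels number the arrays but do not say whether they came from separate cultures, so the p-values take in only how far these arrays differ within a group, which may be technical. K562 is a single line, and the comparison has 1 dose and 1 time point.

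BCR-ABL1 is a tyrosine kinase that is always active and that sends growth signals through RAS and ERK, through STAT5, and through PI3K, AKT and mTOR. Nilotinib binds the inactive form of the ABL kinase domain and blocks its activity. K562 cells can mature towards red cells or, under other agents, towards megakaryocytes, and they make embryonic and fetal globins without treatment.

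A gene is represented by the probe set that names it alone and has the highest mean over the 12 arrays. Levels are MAS5 signals, a linear intensity with no unit, and a change is a log2 fold change of signal + 16, nilotinib minus DMSO, ± its standard error (SE) from limma's fit to all 22215 probe sets with 4 arrays a group. Means of signals are given ± SD over the 4 arrays. A gene was called, and is said to have risen or fallen, at a Benjamini-Hochberg adjusted p under 0.05 over all probe sets. By itself, the 16 added to every signal makes the change of a dim gene smaller. Dim probe sets as a group were higher on the nilotinib arrays, as given below. Whether the rise of a given dim gene is under- or overstated is therefore not known. Signals are given below for arrays 1 to 4 with nilotinib and 9 to 12 with DMSO, in the order of the labels.

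The nilotinib arrays differed from the DMSO arrays in their general properties. Their median signal was 166.2 to 193.7, against 116.8 to 121.4 with DMSO, although the mean between the 2% tails was 499.9 on every array (exact permutation test, two-sided, p = 0.0286, the smallest that 4 against 4 can give). The control probe sets of bacterial and phage transcripts, some of which are added to a sample as spikes, had a median of 53.6 to 76.9 against 23.3 to 37.5 (exact permutation p = 0.0286). Replicates correlated at a Pearson r of 0.942 to 0.961 with nilotinib and 0.976 to 0.981 with DMSO, across 8021 genes that are not independent of each other. The ratio of 3' to 5' signal of the actin control was 3.72 and 5.49 on nilotinib arrays 1 and 2, 1.82 and 2.10 on arrays 3 and 4, and 2.66 to 3.34 with DMSO (exact permutation p = 0.857). Arrays 1 and 2 are the nilotinib arrays of high actin ratio, above 3.5. Where values without such arrays are given, they and imatinib arrays 5 and 6 (5.23 and 5.24) are left out. Those values rest on nilotinib arrays 3 and 4 and on an estimate of the spread from fewer arrays. The part of the smaller number of arrays in the calls lost there was not tested. The part of these array properties in the results was not tested. The median log2 fold change over all probe sets was 0.36, and it was 0.53, 0.65, 0.53, 0.18 and -0.08 in 5 equal groups of probe sets from the dimmest to the brightest. Quantile normalization moved the overall median to 0.02, cyclic loess to 0.01 and median centring to -0.16. Median centring lowers every log2 fold change by 0.52, so every smaller rise turns negative under it.

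**Figure D1:**
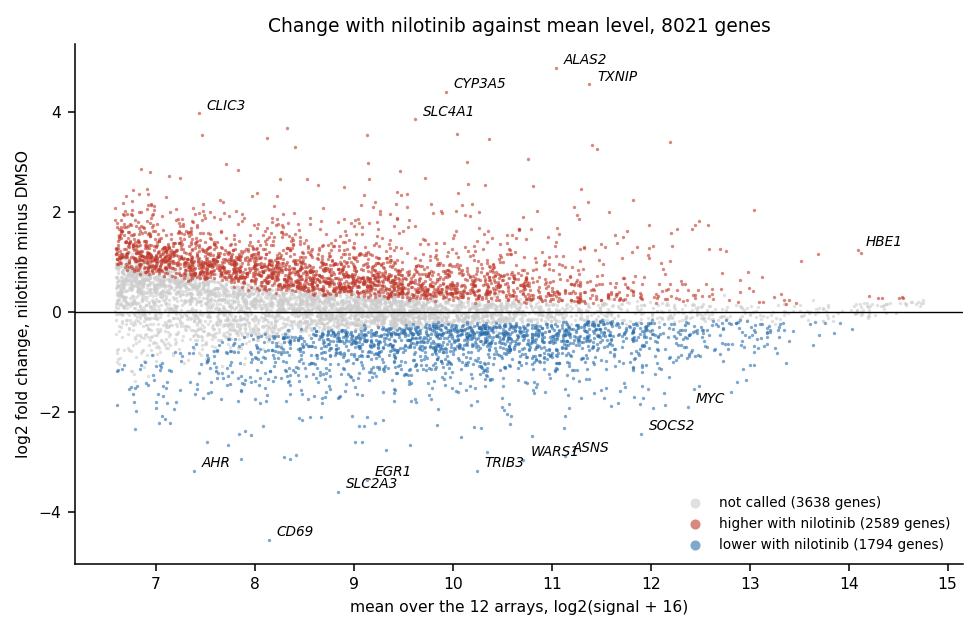
Log2 fold change of nilotinib against DMSO for each of 8021 genes (vertical axis) against its mean log2(signal + 16) over the 12 arrays (horizontal axis). Each point is a gene, coloured by its call. The 2589 genes called higher reach down to the dimmest levels, and the 1794 called lower lie mostly at high levels.

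A large part of the probe sets differed between the nilotinib and DMSO arrays. Of 22215 probe sets, 6343 (28.6%) rose and 2877 (13.0%) fell, 9220 (41.5%) in all. With quantile normalization 2969 rose and 3324 fell, with cyclic loess 3092 and 3429, and with median centring 1424 and 6255, so the share of calls that were higher went from 68.8% to 47.2%, 47.4% and 18.5%. The counts of list members below use the 8021 genes whose mean over the 12 arrays lay at or above the 40th percentile of all probe sets, a signal of 80.6. That mean takes in the drug arrays, so a gene dim with DMSO can pass through its rise, as AHSP, CYP1A1 and CLIC3 did. How far this filter favours rises in the counts was not tested. Of these, 2589 (32.3%) rose and 1794 (22.4%) fell, 54.6% in either direction. By at least 1 on the log2 scale, which is 2-fold, 915 (11.4%) rose and 427 (5.32%) fell. By at least 2, which is 4-fold, 87 rose and 49 fell. For 2394 genes (29.8%) every nilotinib array lay above every DMSO array and for 1675 (20.9%) every one lay below, 50.7% in all. The median over these genes was 0.15, and a list's counts and median are to be read against these figures. The lists and their members were chosen with earlier results of these data known. A share above these figures is therefore a description and not a test. The share called also went with level. In the 5 groups of probe sets from the dimmest to the brightest, 0.5%, 2.4%, 5.7%, 17.7% and 38.5% fell. In the same order 25.1%, 23.0%, 33.9%, 34.5% and 26.3% rose. The counts of a list of bright genes are therefore to be read against the brightest group as well.

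The largest rises included genes of the red cell and a regulator of thioredoxin. ALAS2, the erythroid form of the first enzyme of heme synthesis, had signals of 6536, 6783, 7752 and 7853 with nilotinib and of 223, 303, 229.5 and 173 with DMSO. It was the gene with the largest rise, by 4.89 ± 0.13, 29.6-fold on the signal + 16 scale, and its lowest nilotinib array was far above its highest DMSO array. TXNIP, which binds and inhibits thioredoxin and limits glucose uptake, had 7922, 7639, 7841 and 8342 against 369, 290.3, 347 and 292, a rise of 4.55 ± 0.08. CYP3A5, a drug-metabolising cytochrome P450, had 2934, 2763, 3830.2 and 3556 against 137, 158, 140.2 and 121, a rise of 4.40 ± 0.12. None of these 3 genes had overlapping groups, and all 3 also passed a test for a change of more than 1 on the log2 scale.

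The largest falls included genes known to be switched on by growth signals. CD69, a surface antigen induced early after activation, had 88.0, 46.9, 99.6 and 97.3 with nilotinib and 2390.2, 2113, 2299.5 and 2284 with DMSO, a log2 fold change of -4.57 ± 0.21. SLC2A3, the high-affinity glucose transporter GLUT3, had 156, 158, 235 and 184 against 2341, 2495, 2237 and 2408, a change of -3.60 ± 0.14. EGR1, a factor that ERK signalling induces within minutes, had 262, 275, 296 and 246 against 3015, 3007, 2862 and 2731, a change of -3.36 ± 0.14. For each of them the nilotinib arrays all lay below the DMSO arrays. AHR, the aryl hydrocarbon receptor, followed at -3.19 ± 0.27 and TRIB3, a pseudokinase induced by amino acid shortage, at -3.18 ± 0.12.

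**Figure D2:**
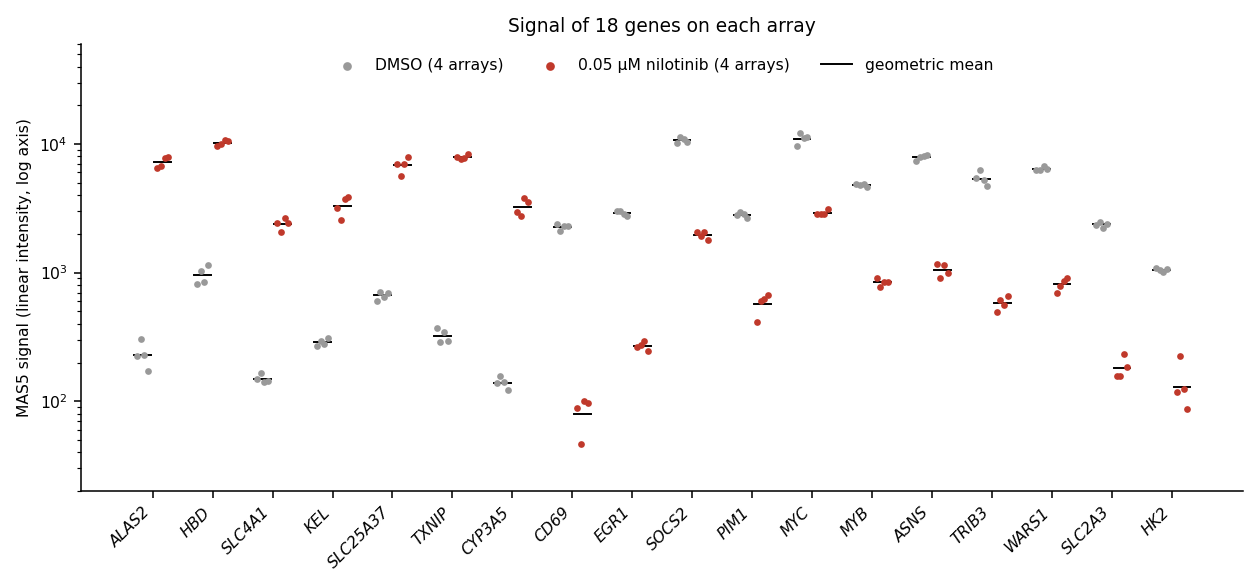
MAS5 signal on a log axis of 18 genes on each of 4 DMSO arrays (grey) and 4 nilotinib arrays (red), with the geometric mean of each group as a line. The groups do not overlap for any of the 18 genes, and the arithmetic mean signal, which differs slightly from the line drawn, goes from 232 to 7231 for ALAS2 and from 2272 to 82.9 for CD69.

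Transcripts of BCR and ABL1 changed little, and that of another protein that the drug binds fell. BCR had signals of 384, 366, 398 and 365 with nilotinib and 256, 256, 266 and 319.7 with DMSO, a rise of 0.45 ± 0.13 (adjusted p = 0.014) that was no longer called under any of the 3 other scalings and turned to -0.08 with median centring. ABL1 had 2539.9, 2213, 2427 and 2191 against 1808, 1980.4, 1796 and 1702, a rise of 0.36 ± 0.08 that median centring turned to -0.16. How far these probe sets read the fusion transcript was not examined. KIT, another kinase that nilotinib blocks, had 0.29 ± 0.15 and was not called (adjusted p = 0.128), although without nilotinib array 4 it was called (0.41). NQO2, a quinone reductase that nilotinib also binds, fell from 2661 ± 51.8 to 770.5 ± 116 (SD, n = 4 each), which is -1.78 ± 0.09 on the log2 scale. Of 9 listed drug targets these 4 were measured, 4 lay below the level used for counts and 1 had no probe set that names it alone. ABL2, PDGFRA and PDGFRB lay below that level, and DDR1 was not among the measured genes either. Among the SRC family kinases LYN fell (-1.36 ± 0.08), YES1 fell (-1.12 ± 0.12) and FYN rose (0.93 ± 0.08). These were the listed SRC family members measured above the floor.

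Of 14 measured adaptors and phosphatases that act at the fusion kinase, 6 rose and 4 fell, with a median of 0.11 that turned to -0.41 with median centring, where 2 rose and 7 fell. The rises were 4 with quantile normalization and with cyclic loess. The docking proteins went in opposite directions: GAB2, which binds the fusion through GRB2, had -1.67 ± 0.41 and GAB1 had 1.46 ± 0.30. The phosphatase gene PTPN6 (SHP-1), which damps tyrosine kinase signals, rose by 1.18 ± 0.23.

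Genes induced by the ERK pathway were lower, with exceptions. Of 12 measured immediate early genes 7 fell and 1 rose (median -0.52). Besides EGR1 and CD69, IER3 (-1.20 ± 0.15), ATF3 (-0.95 ± 0.20), JUND (-0.54 ± 0.08) and the survival gene MCL1 (-0.54 ± 0.08) fell, while JUN rose by 0.90 ± 0.11. Of 10 measured genes of ERK feedback and ETS factors 6 fell and 1 rose (median -0.65). ETV5, an ETS factor, had 168, 52.6, 174 and 174 with nilotinib and 725, 697, 783 and 768 with DMSO (-2.38 ± 0.29). Its signal on nilotinib array 2 was well below those of the other 3, and the groups did not overlap. The feedback inhibitors SPRY2 (-1.26 ± 0.15), SPRED2 (-1.22 ± 0.10) and SPRY4 (-0.67 ± 0.18) fell. DUSP1, a phosphatase of MAP kinases that is itself induced by stress, was the 1 member that rose (1.15 ± 0.17).

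The list of STAT5 and its targets had the lowest median of the signalling lists. Of 11 measured members 7 fell and 2 rose, with a median of -1.65. SOCS2, a feedback inhibitor of cytokine receptors, had 2057, 1927, 2059 and 1796 with nilotinib and 10205, 11338, 10888 and 10392 with DMSO, a change of -2.44 ± 0.07. PIM1, a survival kinase, had 416, 600.0, 621 and 675 against 2787, 2939, 2835 and 2654, a change of -2.27 ± 0.14. CISH, another feedback inhibitor, had 189, 278, 388 and 315 against 906, 1065, 1064 and 866, a change of -1.72 ± 0.17. The arrays of the 2 groups were apart in all 3 cases. CCND2, which encodes cyclin D2 (-2.33 ± 0.09), PIM2 (-1.71 ± 0.20) and BCL2L1, which encodes the survival protein BCL-XL (-1.22 ± 0.12), fell. The probe sets of CCND2 above the floor ranged from -3.17 to -0.04 and those of BCL2L1 from -1.22 to -0.07, so these 2 falls hold for part of the probe sets only.

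The sequence before the start of CISH is shown because STAT5 is known to act on it. The 250 bases before the start, from RefSeq at chr3:50611775-50612024 on the minus strand of GRCh38.p14, hold 4 matches of TTCNNNGAA, the form that STAT factors bind, which are in capitals:
CISH: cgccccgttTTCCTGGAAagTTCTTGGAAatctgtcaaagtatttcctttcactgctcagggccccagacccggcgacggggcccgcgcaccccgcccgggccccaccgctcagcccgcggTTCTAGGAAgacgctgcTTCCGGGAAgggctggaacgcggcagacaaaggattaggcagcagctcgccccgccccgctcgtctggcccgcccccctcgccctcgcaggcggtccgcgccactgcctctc
The matches begin 241, 230, 129 and 112 bases before the start. In windows of 300 bases, from 250 before to 50 after a start, TTCNNNGAA (which reads the same on both strands) was found in 2 of 14 windows of the measured STAT5 list (14.3%), those of CISH and BCL6, and in 7.66% of all 35116 windows. Of the 11 measured members 9 had a window. A match is a description of the letters and not a bound site.

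In the PI3K, AKT and mTOR list 3 of 14 measured members rose and 5 fell (median 0.10, which turned to -0.09, -0.11 and -0.42 under the 3 scalings, quantile, loess and median, in that order). EIF4EBP1, the translation repressor that mTOR phosphorylates, fell from 2157 ± 67.2 to 712 ± 23.9 (-1.58 ± 0.08). The catalytic subunit PIK3CB (-1.0 ± 0.11) and the mTOR activator RHEB (-0.80 ± 0.09, 2 of 3 probe sets called) fell, and PIK3IP1, an inhibitor of PI3K (1.23 ± 0.23), and TSC1, an inhibitor of RHEB (0.90 ± 0.13), rose. FOXO factors, which AKT keeps out of the nucleus, were listed with their targets. Of 14 measured members 11 rose and none fell (median 0.66), with 5 rises left under median centring. Besides TXNIP, the catalase gene CAT rose by 1.73 ± 0.06, FOXO3 itself by 1.24 ± 0.10, CITED2 by 1.24 ± 0.07 and CCNG2, an atypical cyclin of resting cells, by 1.06 ± 0.18. BCL2L11, which encodes the death protein BIM, rose by 0.81 ± 0.17, from signals of 196, 176, 178 and 222 to signals of 370.3, 367, 314 and 346. The call of BCL2L11 was lost with median centring.

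MYC and most measured genes of ribosome biogenesis were lower. MYC had signals of 2857, 2843, 2864 and 3107 with nilotinib and 9647, 12209, 11162 and 11234 with DMSO, a log2 fold change of -1.91 ± 0.10 (95% interval -2.12 to -1.70). In the list of MYC and the MAX network, which includes MYC itself, 3 of 8 members rose and 3 fell (median -0.13), and MXD3, an antagonist of MYC, rose by 1.85 ± 0.35. Of 19 measured genes of ribosome biogenesis 15 fell and 1 rose (median -0.91). The nucleolar proteins NOP16 (-1.67 ± 0.09), NOLC1 (-1.67 ± 0.11), MRTO4 (-1.45 ± 0.11) and the helicase DDX21 (-1.42 ± 0.07) were among them. RRS1 had 567, 98.8, 457 and 539 with nilotinib and 1058, 998, 1203 and 1125 with DMSO (-1.61 ± 0.34), and array 2 was much the lowest. The proteins of the finished cytosolic ribosome did not follow. Of 32 measured, 1 rose and 2 fell (median 0.06, range -0.26 to 0.27), but with cyclic loess 18 rose and with median centring 31 fell (median -0.46).

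Of 12 measured genes of polyamine synthesis and of the hypusine step that follows it, 6 fell and 2 rose (median -0.51). The 4 synthetic enzymes all fell. ODC1, its first and rate-limiting enzyme, had 2093, 1889, 2633 and 2116 against 7893, 8469.6, 8604 and 8352 with DMSO (-1.93 ± 0.08). AMD1, which makes the aminopropyl donor, had -1.52 ± 0.10, the spermidine synthase gene SRM -1.39 ± 0.10, the spermine synthase gene SMS -0.74 ± 0.08 and EIF5A, the factor that carries hypusine, -1.03 ± 0.20. SAT1, which breaks polyamines down, rose from 2857 ± 53.6 to 9014 ± 410.4 (1.65 ± 0.09). In nucleotide synthesis 17 of 24 measured members fell and 2 rose (median -0.43). The purine enzymes PFAS (-1.54 ± 0.15), GART (-1.14 ± 0.12) and PAICS (-1.13 ± 0.07), the pyrimidine enzyme UMPS (-0.96 ± 0.12) and the nucleoside diphosphate kinase NME1 (-1.50 ± 0.07) fell.

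Before the starts of 2 of these genes the E-box CACGTG, which MYC binds with MAX, is present, in capitals here. The 250 bases come from RefSeq, at chr1:11060019-11060268 on the minus strand for SRM and at chr10:68956397-68956646 on the plus strand for DDX21, both of GRCh38.p14:
SRM: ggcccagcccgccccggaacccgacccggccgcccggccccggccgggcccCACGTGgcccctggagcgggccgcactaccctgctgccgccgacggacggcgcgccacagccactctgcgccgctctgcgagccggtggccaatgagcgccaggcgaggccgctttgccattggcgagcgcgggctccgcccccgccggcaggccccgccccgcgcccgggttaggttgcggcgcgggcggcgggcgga
DDX21: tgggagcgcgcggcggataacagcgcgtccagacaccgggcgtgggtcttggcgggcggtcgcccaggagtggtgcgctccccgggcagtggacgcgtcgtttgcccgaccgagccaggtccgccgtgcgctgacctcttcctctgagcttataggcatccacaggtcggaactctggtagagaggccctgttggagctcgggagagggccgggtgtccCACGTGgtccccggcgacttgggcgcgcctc
The match begins 199 bases before the start of SRM and 31 before that of DDX21. CACGTG, which reads the same on both strands, was found in 17 of 71 windows of the measured genes of ribosome biogenesis, polyamine and nucleotide synthesis (23.9%) and in 7.26% of all windows of that length. Of the 55 measured members 49 had a window.

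Genes of the amino acid response had the lowest median of all lists. ATF4 is a transcription factor whose translation rises when amino acids run short or proteins misfold, and its targets make, import and load amino acids. Of 15 measured members of its list 13 fell and none rose (median -2.05, range -3.18 to 0.69). ASNS, the asparagine synthetase gene, had 1173, 914, 1154 and 996 with nilotinib and 7319.7, 7971, 8133 and 8257 with DMSO (-2.89 ± 0.08). TRIB3 had 494, 616, 564 and 662 against 5456, 6246, 5244 and 4706. DDIT4, an inhibitor of mTOR, had 756, 651, 668 and 788 against 5164, 5008, 5095 and 4932 (-2.80 ± 0.10). In each, all nilotinib arrays lay below all DMSO arrays. CTH, which makes cysteine from cystathionine, had -2.76 ± 0.15 and the factor ATF5 -2.28 ± 0.15.

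The 3 enzymes of serine synthesis fell together. Of 9 measured genes of serine, glycine and one-carbon metabolism 8 fell and 1 rose (median -1.32). The rise was that of ALDH1L1 (0.91 ± 0.35), whose groups overlapped. No member rose under any of the 3 other scalings or without the arrays of high actin ratio. PHGDH, the first enzyme, had 214, 287, 194 and 294 against 1599, 1704, 1478 and 1519.9 with DMSO (-2.61 ± 0.14). The next enzymes in order, PSAT1 (-1.79 ± 0.30) and PSPH (-1.48 ± 0.13), fell, as did the mitochondrial enzymes SHMT2 (-1.32 ± 0.08) and MTHFD2 (-1.85 ± 0.07) that pass on serine's carbon. Of 13 measured amino acid transporters 9 fell and 4 rose (median -0.89). The glutamine and neutral amino acid importers SLC38A1 (-2.13 ± 0.19) and SLC38A2 (-1.55 ± 0.08), the leucine exchanger SLC7A5 (-2.09 ± 0.17), the arginine and lysine importer SLC7A1 (-1.85 ± 0.08) and the cystine importer SLC7A11 (-1.54 ± 0.14) were lower. For SLC7A11 2 of 3 probe sets were called. SLC36A1, which exports amino acids from the lysosome, rose by 1.49 ± 0.23.

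Of 16 measured cytosolic aminoacyl-tRNA synthetases, which load tRNAs, 13 fell and none rose (median -1.14). The range over the 4 nilotinib arrays of this median was -1.19 to -1.10. WARS1, the tryptophan enzyme, had 689.6, 791, 859.6 and 914 against 6311, 6222, 6718 and 6396 (-2.96 ± 0.08) and YARS1, the tyrosine enzyme, -2.25 ± 0.11, followed by GARS1 (-1.70 ± 0.08), CARS1 (-1.62 ± 0.07) and IARS1 (-1.54 ± 0.07). Their mitochondrial counterparts had a median closer to 0. Of 9 measured 3 fell and none rose (median -0.34), with NARS2 at -0.80 ± 0.10 and LARS2 at -0.58 ± 0.12 (1 of 2 probe sets called), while 4 fell with quantile normalization and 5 with cyclic loess. GARS1 serves both compartments and was counted with the cytosolic enzymes.

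The promoters of ASNS and GARS1 are shown for the element TGATGNAA, the form of the C/EBP-ATF composite site to which ATF4 binds. The 250 bases are from RefSeq, at chr7:97872409-97872658 on the minus strand and chr7:30594628-30594877 on the plus strand of GRCh38.p14, with the match in capitals:
ASNS: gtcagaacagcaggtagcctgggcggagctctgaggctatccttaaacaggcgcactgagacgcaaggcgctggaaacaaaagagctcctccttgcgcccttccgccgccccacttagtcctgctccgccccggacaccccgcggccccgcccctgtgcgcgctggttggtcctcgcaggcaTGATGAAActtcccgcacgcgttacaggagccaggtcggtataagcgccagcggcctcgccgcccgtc
GARS1: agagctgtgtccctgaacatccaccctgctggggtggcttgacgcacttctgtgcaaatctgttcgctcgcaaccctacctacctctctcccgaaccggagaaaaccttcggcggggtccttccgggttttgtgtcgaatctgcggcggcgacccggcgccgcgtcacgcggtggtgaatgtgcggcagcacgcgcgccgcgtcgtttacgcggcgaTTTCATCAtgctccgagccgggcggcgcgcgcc
It begins 68 bases before the start of ASNS and, on the other strand, 33 before that of GARS1. TGATGNAA, sought on both strands, was found in 13 of 74 windows of the measured members of the ATF4, serine, transporter and cytosolic synthetase lists (17.6%) and in 3.62% of all windows of that length. Of the 53 measured members 45 had a window.

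Genes of protein folding in the endoplasmic reticulum fell in part. Of 19 measured members 9 fell and none rose (median -0.26). HSPA5, the chaperone BiP, fell from 6970.3 ± 401 to 3178 ± 92.9 (-1.13 ± 0.06). MANF (-1.57 ± 0.12), the factor XBP1 (-1.42 ± 0.12), HERPUD1 (-1.32 ± 0.10) and SDF2L1 (-1.12 ± 0.09), all induced when proteins misfold, fell with it.

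Genes of glucose uptake went both ways and most measured glycolytic genes fell. While GLUT3 (SLC2A3) fell, SLC2A1, which encodes the red cell transporter GLUT1, had 3752, 3002, 3406 and 3364 with nilotinib and 1026, 1083, 1028 and 1020.1 with DMSO, a rise of 1.68 ± 0.07. HK2, the hexokinase of growing cells, had 117, 225, 123 and 86.7 against 1077, 1048, 1016 and 1076 (-2.87 ± 0.22). Of 16 measured glycolytic genes 10 fell and 3 rose (median -0.46). The lactate dehydrogenase LDHA (-1.41 ± 0.07), the mutase PGAM1 (-1.34 ± 0.07) and the isomerase GPI (-1.01 ± 0.11) fell, each with groups that did not overlap. For PKM the brighter probe set gave -2.60 ± 0.33 and the other 0.13, which was not called, so its direction is not clear. Of 20 measured genes of the pentose phosphate path and the TCA cycle 11 fell and 4 rose (median -0.43), with the transketolase TKT at -1.10 ± 0.15, the ribose phosphate isomerase RPIA at -1.08 ± 0.13 and the cytosolic isocitrate dehydrogenase IDH1 at -1.36 ± 0.07.

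In fatty acid synthesis 7 of 10 measured members fell and none rose (median -0.76). FABP5, a fatty acid carrier, had 139, 31.9, 60.7 and 61.3 with nilotinib and 603, 709.9, 622 and 528 with DMSO (-2.95 ± 0.27). The desaturase SCD (-1.31 ± 0.06), the acyl-CoA synthetases ACSL4 (-1.55 ± 0.29) and ACSL1 (-1.06 ± 0.09) and the elongase ELOVL5 (-0.85 ± 0.07) fell, the last by 1 of 3 probe sets. Sterol synthesis had no common direction, with 4 of 18 measured members higher and 4 lower (median -0.14), 2 and 2 without the arrays of high actin ratio.

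Many nuclear genes of the mitochondrion fell. Of 43 measured mitochondrial ribosomal proteins 31 fell and none rose (median -0.56, range -1.38 to 0.13), among them MRPS2 (-1.38 ± 0.11), MRPS17 (-1.33 ± 0.09), MRPS12 (-1.16 ± 0.09) and MRPL34 (-1.08 ± 0.08). Of 26 carriers and import proteins 18 fell and 1 rose (median -0.50). The import channel gene TIMM50 had 40.8, 44.5, 73.2 and 28.8 against 255, 317, 237 and 266 (-2.22 ± 0.33). The ornithine carrier SLC25A15 (-1.74 ± 0.20), the folate carrier SLC25A32 (-1.69 ± 0.11), the import motor HSPA9 (-1.52 ± 0.09) and TIMM10 (-1.37 ± 0.14) were lower too. Genes of oxidative phosphorylation had a median closer to 0. Of 50 members 26 fell and 1 rose (median -0.23), but with quantile normalization 13 fell and 7 rose (median -0.08). NDUFS6 (-1.06 ± 0.07) and NDUFS1 (-0.77 ± 0.10) of complex I and ATP5MC1 (-1.03 ± 0.19) of the ATP synthase had the larger falls.

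In the list of thioredoxin and peroxide removal 7 of 12 measured members fell and 3 rose (median -0.28), 5 and 5 with quantile normalization. Thioredoxin itself, TXN (-0.75 ± 0.08), fell as its inhibitor TXNIP rose, and its reductase TXNRD1 (-0.70 ± 0.09) and the peroxiredoxins PRDX4 (-0.93 ± 0.07) and PRDX1 (-0.77 ± 0.08) fell as well. Of 12 genes of glutathione and of NRF2 targets 4 fell and 2 rose (median -0.18, 0.04 without the arrays of high actin ratio). The gene of NRF2, NFE2L2, had -1.18 ± 0.08, the glutathione synthetase GSS -0.75 ± 0.11 and the microsomal transferase MGST3 1.04 ± 0.10.

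In the general machinery of gene expression more members fell than rose. In translation initiation 19 of 31 measured members fell and none rose (median -0.33), 16 and 3 with quantile normalization and with cyclic loess, led by the eIF3 subunits EIF3J (-1.15 ± 0.09) and EIF3G (-1.03 ± 0.09). Of 36 genes of the nuclear pore and of transport through it 24 fell and 4 rose (median -0.46), with the importin IPO4 at -1.38 ± 0.36, the tRNA exporter XPOT at -1.17 ± 0.09 and NUP98 at -1.12 ± 0.11, the last by 1 of 3 probe sets. Of 49 splicing genes 27 fell and 7 rose (median -0.34). SNRPA1, a U2 particle protein, had 2237, 1828, 1722 and 1703 against 6429.8, 7700.5, 6964 and 6816 (-1.89 ± 0.11), SRSF7 had -1.83 ± 0.10, PRPF4 -1.43 ± 0.13 and HNRNPA2B1 -1.07 ± 0.08, whereas the splicing kinases CLK1 (1.04 ± 0.11) and CLK4 (1.27 ± 0.10) rose.

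Of 21 heat shock proteins and subunits of the CCT chaperonin 12 fell and 5 rose (median -0.38), 12 and 8 with cyclic loess, with CCT6A at -0.97 ± 0.08 and CCT7 at -0.88 ± 0.08. The proteasome had 10 of 31 members lower and 4 higher (median -0.11), a balance that quantile normalization turned to 6 lower and 9 higher (median 0.04). PSMD8 (-0.65 ± 0.09) and PSMA3 (-0.57 ± 0.08) were among its falls.

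**Figure D3:**
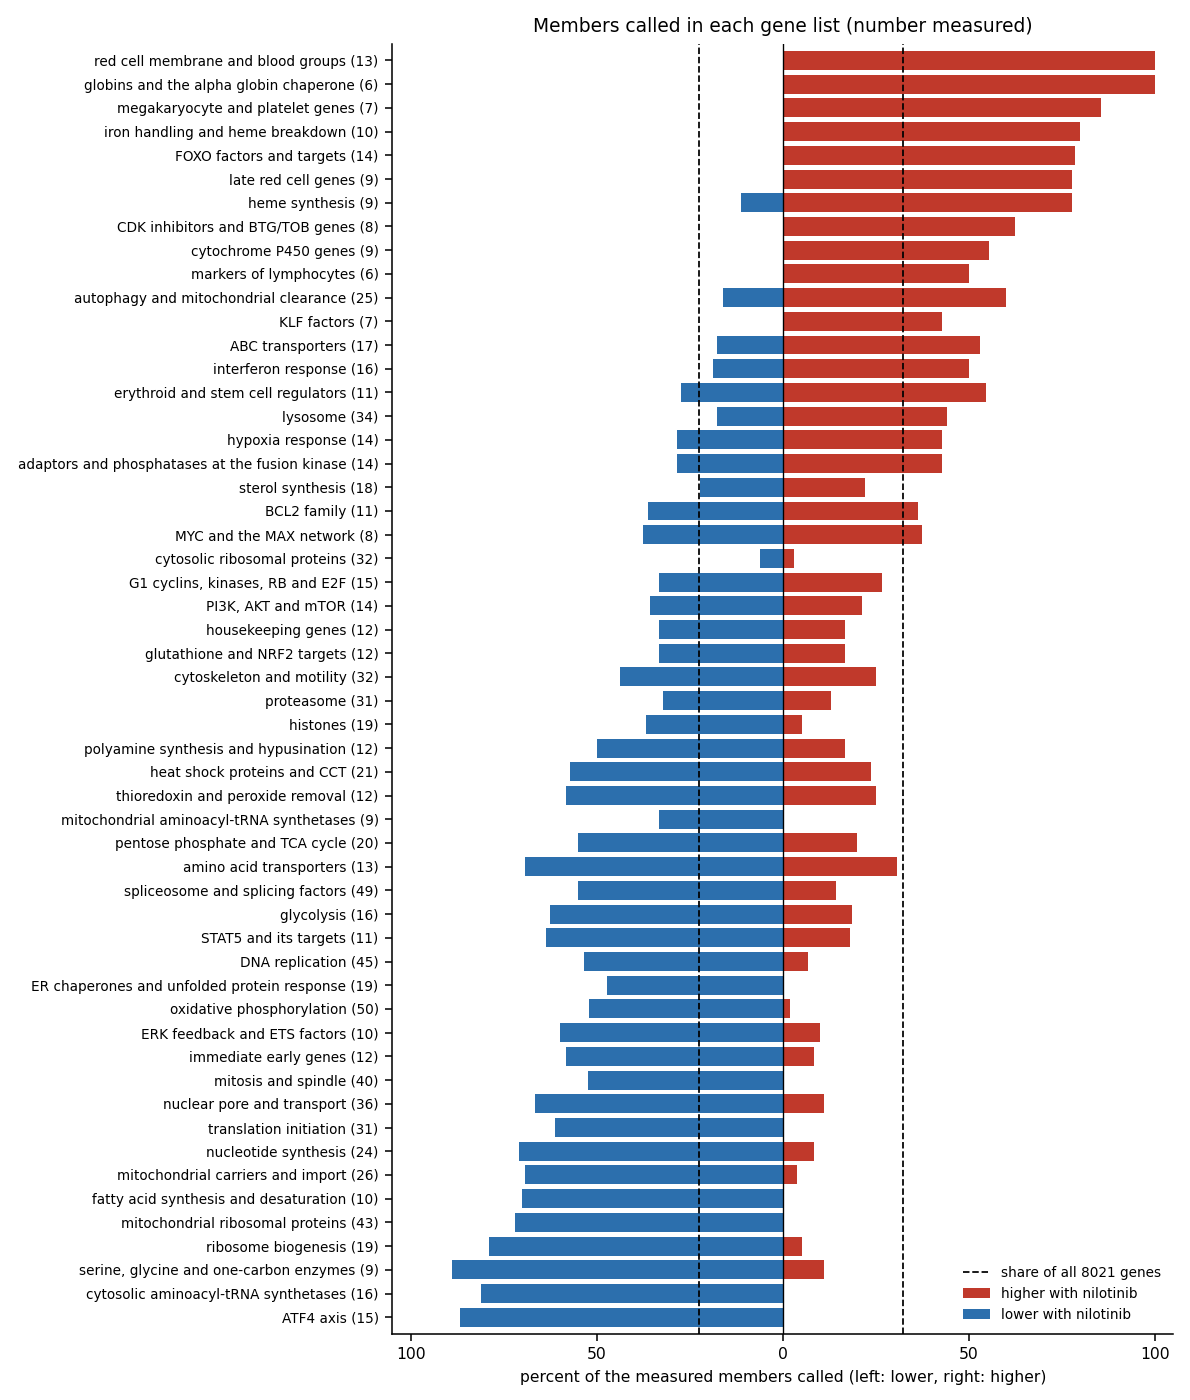
Percent of the measured members of each gene list called higher (red, to the right) or lower (blue, to the left) with nilotinib, with the number measured after each name. Dashed lines mark the share of all 8021 genes, 32.3% higher and 22.4% lower. All measured red cell membrane genes rose and 13 of 15 ATF4 genes fell.

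Genes of DNA replication and mitosis fell more often than they rose. Of 45 measured DNA replication genes 24 fell and 3 rose (median -0.30). DBF4, the activator of the kinase that fires origins, had -1.02 ± 0.07, CDC45 of the replicative helicase -0.76 ± 0.08, the clamp loader RFC4 -0.67 ± 0.07 and GINS1 -0.66 ± 0.12. Of 40 mitosis genes 21 fell and none rose (median -0.32). The kinase CDK1 had 2598, 2476, 2093 and 2255 with nilotinib and 5050.2, 4545, 4337 and 4344 with DMSO (-0.95 ± 0.12), groups that did not overlap. The condensin NCAPH had -0.85 ± 0.25, the survivin gene BIRC5 -0.77 ± 0.08 and the kinase AURKA -0.75 ± 0.10, the last 2 called by 1 of 3 probe sets each. In the histone list 7 of 19 members fell and 1 rose (median -0.08), with the linker histone H1-2 at -0.70 ± 0.07.

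At the entry to the cycle the D cyclins went in opposite directions. CCND2 fell as above, and CCND3, which encodes cyclin D3, had 7543, 6267, 7415 and 7571 with nilotinib and 2441, 2535, 2313 and 2251 with DMSO, a rise of 1.58 ± 0.10. In the list of G1 cyclins, kinases, RB and E2F 4 of 15 measured members rose and 5 fell (median 0.10, -0.11 with quantile normalization, -0.07 with cyclic loess and -0.43 with median centring), with E2F5 at -1.33 ± 0.27 and CDK2 at -0.53 ± 0.08 (1 of 2 probe sets called). Of 8 CDK inhibitors and BTG and TOB genes 5 rose and none fell (median 0.42, and 1 and 1 with a median of -0.11 under median centring). The 5 include CDKN2A (1.11 ± 0.28), whose mean level was 7.64 on the log2 scale. That lies in the middle of the 5 groups of probe sets by level, where the median change was 0.53. The part of that general rise in the call of CDKN2A was not tested. CDKN1C, which encodes p57, had 5322, 5059.7, 4717 and 4102 against 923, 1125, 1085 and 1002, a rise of 2.20 ± 0.09 seen in all 4 probe sets. CDKN1B, which encodes p27, rose by 0.40 ± 0.08, which median centring turned to -0.13.

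In the BCL2 family 4 of 11 measured members rose and 4 fell (median 0.30), 2 and 4 without the arrays of high actin ratio. With median centring 1 rose and 5 fell (median -0.22). Of the survival genes BCL2L1 and MCL1 fell while BCL2 itself rose (0.59 ± 0.23). That rise is little larger than the 0.52 that median centring takes off every change. Of the death genes BID (-1.17 ± 0.13) and PMAIP1 (-0.80 ± 0.11) fell while BCL2L11 rose. BNIP3L, which marks mitochondria for removal in maturing red cells, rose by 1.14 ± 0.09. Of 15 measured caspases and their regulators 4 rose and 4 fell, 3 and 6 with cyclic loess and 4 and 2 without the arrays of high actin ratio.

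Red cell genes rose with few exceptions. In RNA from a whole culture, more cells of a kind and more RNA per cell cannot be told apart. All 6 measured members of the list of globins and the alpha globin chaperone rose (median 2.40), and their summed signal was 63010.3 to 70328 with nilotinib against 21249.9 to 25988. The other 5 of the 11 listed had no probe set that names them alone. No alpha or gamma globin is among the 6, so the sum is not that of all globin transcripts. HBD, delta globin, had 9641, 10039.7, 10796 and 10465 with nilotinib and 822, 1038, 841 and 1156 with DMSO (3.40 ± 0.09). HBB rose by 3.26 ± 0.11, read by a probe set that may also take up other globin transcripts. The embryonic globins HBE1 (1.24 ± 0.09) and HBZ (1.18 ± 0.08) started from much higher signals, from 10694 ± 1541 to 25183 ± 1926 (SD, n = 4 each) for HBE1. HBQ1, theta globin, rose by 1.53 ± 0.15, and AHSP, the chaperone of free alpha globin, had 704, 790.3, 814 and 739.5 against 88.3, 29.96, 83.4 and 65.5 (3.30 ± 0.21).

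All 13 measured genes of the red cell membrane and blood groups rose (median 1.59, range 0.64 to 3.85), and 12 still did with median centring. SLC4A1, the anion exchanger band 3, had 2428, 2051, 2636 and 2439 against 149, 166, 142 and 144 (3.85 ± 0.10). KEL, the Kell blood group protein, had 3186, 2552, 3739 and 3894 against 267, 293, 279 and 312 (3.45 ± 0.12). The skeleton protein ADD2 (2.52 ± 0.09), the Scianna blood group protein ERMAP (2.40 ± 0.11) and the water channel AQP1 (2.38 ± 0.21) followed.

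In heme synthesis 7 of 9 measured members, 1 of them a mitochondrial carrier, rose and 1 fell (median 1.27). Along the path, ALAD had 2.10 ± 0.13, CPOX 1.27 ± 0.08, PPOX 2.10 ± 0.09 and FECH, which inserts the iron, 1.86 ± 0.07. The 1 enzyme that fell was ALAS1, the form of the first enzyme found in all tissues (-0.68 ± 0.19), and its groups overlapped. Of 10 genes of iron handling and heme breakdown 8 rose and none fell (median 0.47, and 3 and 2 with a median of -0.05 under median centring). SLC25A37, mitoferrin, which brings iron into the mitochondrion, had 6929.6, 5631, 6943 and 7968 against 602, 712, 651 and 695 (3.33 ± 0.11). BLVRB, a biliverdin reductase abundant in red cells, rose by 2.04 ± 0.07 and the iron sensor TFR2 by 1.10 ± 0.11. The transferrin receptor TFRC was already at 15416, 18662, 17471 and 15719.7 with DMSO and rose by 0.32 ± 0.07, which median centring turned to -0.20. Of 9 late red cell genes 7 rose and none fell (median 1.28), 5 and 3 with median centring, with BPGM, which makes the regulator of oxygen release, at 2.16 ± 0.12, SELENBP1 at 2.15 ± 0.15, the carbonic anhydrase CA1 at 1.99 ± 0.31 and TRIM58 at 1.88 ± 0.12.

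The sequences before ALAS2 and KEL are shown for AGATAA, the form that GATA factors bind. The 250 bases are from RefSeq, at chrX:55030978-55031227 and chr7:142962364-142962613, both on the minus strand of GRCh38.p14, with the match in capitals:
ALAS2: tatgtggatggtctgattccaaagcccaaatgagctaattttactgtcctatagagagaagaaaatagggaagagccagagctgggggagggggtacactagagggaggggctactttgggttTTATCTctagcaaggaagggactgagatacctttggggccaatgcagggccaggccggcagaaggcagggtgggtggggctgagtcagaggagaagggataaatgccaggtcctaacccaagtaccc
KEL: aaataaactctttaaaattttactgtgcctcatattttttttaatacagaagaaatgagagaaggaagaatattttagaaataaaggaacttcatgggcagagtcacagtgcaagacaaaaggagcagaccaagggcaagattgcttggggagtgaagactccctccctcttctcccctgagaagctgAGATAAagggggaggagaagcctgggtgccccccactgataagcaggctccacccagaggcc
The match lies on the other strand, 127 bases before the start, for ALAS2, and begins 62 bases before the start of KEL. AGATAA, sought on both strands, was found in 9 of 32 windows of the globin, red cell membrane, heme and late red cell lists (28.1%) and in 10.3% of all windows of that length. Of the 37 measured members 23 had a window.

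The regulators of the lineage went both ways. Of 11 measured regulators of erythroid and stem cells 6 rose and 3 fell (median 0.96). GATA1, the master factor of red cells, had 1001, 864, 1079 and 892 with nilotinib and 854, 786, 925 and 728 with DMSO and was not called (0.22 ± 0.15, adjusted p = 0.261, -0.31 with median centring). Its partners TAL1 (1.66 ± 0.07) and LMO2 (1.32 ± 0.08) rose, as did the repressor GFI1B (1.69 ± 0.25), the erythropoietin receptor EPOR (1.69 ± 0.15), KLF1 (1.08 ± 0.07) and NFE2 (0.96 ± 0.10). MYB, a factor of dividing progenitors, had 912, 777, 838 and 844 against 4896, 4829, 4842 and 4604 (-2.49 ± 0.08), with no overlap, and the corepressor CBFA2T3 had -0.56 ± 0.10. In the KLF list 3 of 7 members rose and none fell (median 0.57, -0.02 with quantile normalization and -0.03 with cyclic loess, and 2 and 1 with median centring), KLF10, an early response gene of TGF-beta, by 2.99 ± 0.10 and KLF11 by 1.54 ± 0.13. Of the markers of K562 itself GATA1, TAL1, LMO2, NFE2, TFRC, HBE1 and HBZ were measured above the floor in both groups, ITGA2B had means of 172.3 with nilotinib and 82.4 with DMSO, and HBG2 had no probe set that names it alone.

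**Figure D4:**
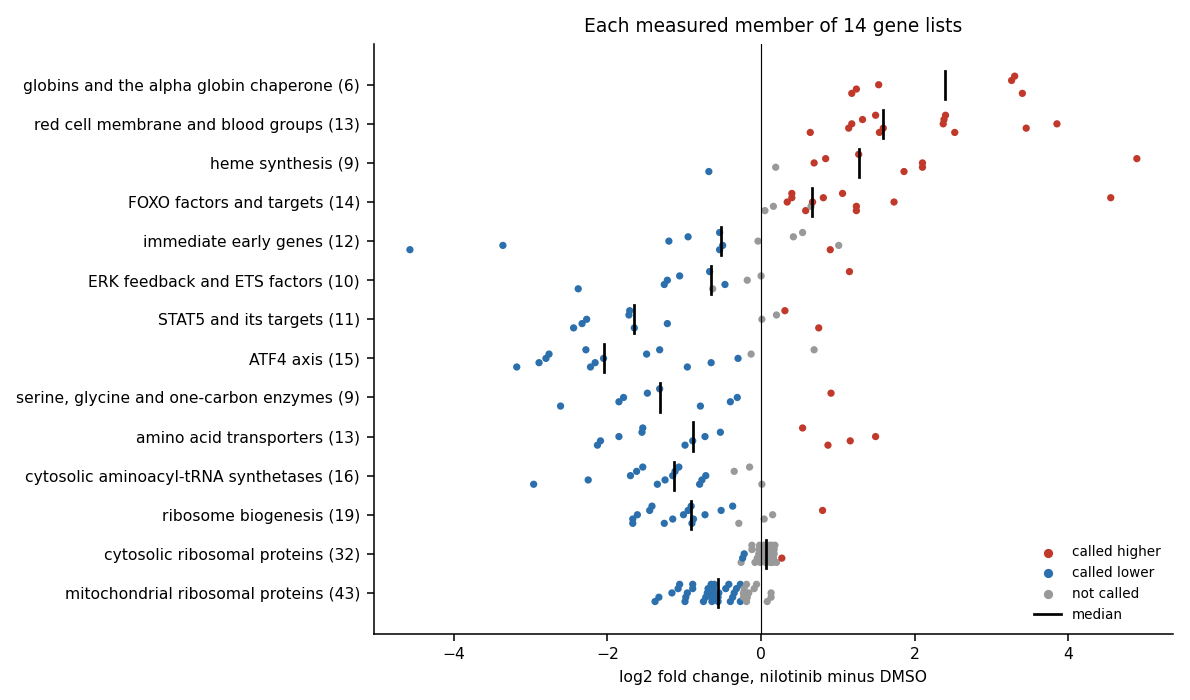
Log2 fold change (horizontal axis) of every measured member of 14 gene lists, 1 point per gene, red where called higher, blue where called lower and grey where not called, with the median as a bar. The globins, red cell membrane and heme lists lie to the right except ALAS1, the ATF4 and synthetase lists to the left, and the cytosolic ribosomal proteins close to 0, a position that median centring moves to -0.46.

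Of 7 measured megakaryocyte and platelet genes 6 rose and none fell (median 1.03), but 2 rose with quantile normalization, 1 with cyclic loess and 2 without the arrays of high actin ratio. The list was dim, with a summed signal of 2054 to 2732 against 748 to 1041, and 8 of its 15 genes with a probe set lay below the floor. The tetraspanin CD9, which other cells also make, rose by 1.83 ± 0.12, ITGB3 by 1.38 ± 0.31, lost with cyclic loess, and ITGA2B had 1.03 ± 0.60 and was not called (adjusted p = 0.172). Of 14 granulocyte and monocyte markers with a probe set 10 lay below the floor, 2 rose and 1 fell (median 0.56, -0.12 above the 60th percentile), with CEBPE at 1.34 ± 0.38, lost with all 3 scalings and without the arrays of high actin ratio, and LYZ at -0.57 ± 0.10. Their summed signal was 2958 to 3932 with nilotinib and 3724 to 4167 with DMSO. Of 6 lymphocyte markers above the floor 3 rose and none fell (median 0.89), but 2 rose and 1 fell under each of the 3 other scalings (medians 0.28 to 0.37), with CD79B at 1.69 ± 0.37 and CD22 at 1.10 ± 0.16, over a summed signal of 1189 to 1895 against 796 to 871. Of 4 markers of fibroblasts, epithelium and endothelium above the floor 2 rose and 1 fell (median 0.58, -0.05 above the 60th percentile, with no rise under any of the 3 scalings), the fall being of EPCAM (-0.48 ± 0.06), and their summed signal was 2841 to 3094 against 3473 to 3667. The part of the higher bacterial control signal of the nilotinib arrays in these rises was not tested.

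Among genes of the lysosome and of autophagy more rose than fell, a balance that median centring reversed. Of 34 lysosomal genes 15 rose and 6 fell (median 0.21), and with median centring 5 rose and 17 fell (median -0.32). The protease CTSL had 5684, 5884, 5720.5 and 6424 against 1729, 1717, 1971 and 1669.5 (1.73 ± 0.07), and the glucosidase GAA (1.70 ± 0.29), the peptidase TPP1 (1.29 ± 0.07), the ceramidase ASAH1 (1.25 ± 0.08) and the protease CTSB (1.01 ± 0.06) rose. The proteases CTSH (-1.73 ± 0.08) and CTSC (-1.51 ± 0.09) fell. Of 25 genes of autophagy and mitochondrial clearance 15 rose and 4 fell (median 0.40, or 8 and 9 with a median of -0.12 under median centring), with the initiation factor ATG14 at 1.69 ± 0.11, the receptor OPTN at 1.13 ± 0.07, the protease ATG4A at 1.04 ± 0.12 among the rises. ATG5, needed to build the autophagosome, fell (-0.86 ± 0.09), by 2 of 3 probe sets. In the hypoxia list 6 of 14 members rose and 4 fell (median 0.14, -0.13 with quantile normalization and cyclic loess and -0.38 with median centring), 6 and 6 with quantile normalization and 1 and 6 with median centring. NDRG1 rose by 1.87 ± 0.24, and BHLHE40 (-2.08 ± 0.07), the growth factor VEGFA (-1.17 ± 0.10) and EPAS1, which encodes HIF-2 alpha (-1.0 ± 0.15), fell, VEGFA by 1 of 3 probe sets.

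Genes of drug metabolism and transport rose in part. Of 9 measured cytochrome P450 genes 5 rose and none fell (median 0.87), and 4 and 1 did so with quantile normalization. Besides CYP3A5, CYP1A1 had 306, 153, 393 and 156 against 13.8, 46.2, 32.6 and 55.7 (2.30 ± 0.37) and CYP2E1 rose by 2.14 ± 0.39. CYP1A1 is a target of AHR, whose own transcript fell. Of 17 ABC transporters 9 rose and 3 fell (median 0.65), with 4 rises under median centring. ABCB6, a porphyrin transporter, rose by 2.33 ± 0.16, ABCA7 by 1.82 ± 0.19 and ABCG2, which exports porphyrins and many drugs, from 516, 371, 512 and 444 to 1316, 1304, 1386 and 1129 (1.45 ± 0.11). The family member ABCE1, which recycles ribosomes and is no transporter, fell (-1.04 ± 0.10).

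Of 16 interferon response genes 8 rose and 3 fell (median 0.52, 5 and 3 with quantile normalization and with cyclic loess, and 3 and 5 with median centring). OAS3 (1.85 ± 0.39), IRF7 (1.54 ± 0.18) and IFI35 (1.19 ± 0.17) rose, and the abundant IFITM2 (-0.68 ± 0.06) and IFITM1 (-0.47 ± 0.06) fell. In the cytoskeleton list 14 of 32 members fell and 8 rose (median -0.22). The filament protein VIM fell from 13764 ± 852 to 5326 ± 515 (-1.37 ± 0.08), ACTN4 had -1.49 ± 0.09, TMSB10 -1.59 ± 0.07 and TUBB2B -1.74 ± 0.14, while the nonmuscle myosin MYH9 (1.75 ± 0.19) and the tubulin TUBA1A (1.47 ± 0.09) rose. The surface glycoprotein CD24 fell (-1.72 ± 0.07) by all 6 probe sets. Of 12 housekeeping genes 2 rose and 4 fell (median -0.11, range -0.50 to 0.56).

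Other genes with large rises stood outside the lists above. CLIC3, a chloride channel family member, had 441, 361, 612 and 623 with nilotinib and 6.61, 41.1, 14.6 and 13.1 with DMSO (3.97 ± 0.30). The adhesion protein NFASC rose by 3.68 ± 0.26, FAXDC2 by 3.55 ± 0.13, PLAAT4, a retinoid-responsive gene, by 3.54 ± 0.27, and CTSE, a protease found on red cells, by 3.53 ± 0.14. The lipoxygenases ALOX12 (3.48 ± 0.22) and ALOX5 (3.05 ± 0.10) rose together. ALOX5 had 4176, 3788, 3855 and 3252 against 462, 528, 433 and 355. The enzyme ABAT (2.98 ± 0.12), the signalling regulator RGS2 (2.96 ± 0.30), the secreted protein RELN (2.82 ± 0.12), LBH (2.68 ± 0.13) and the inhibitor of differentiation ID2 (2.66 ± 0.17) followed, with the transporters SLC30A10 (2.66 ± 0.18) and SLC22A4 (2.65 ± 0.19) and the collagen gene COL18A1 (2.56 ± 0.10).

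Among the largest falls outside the lists, AHR had 92.0, 37.0, 46.4 and 82.8 with nilotinib and 744, 665, 749.6 and 604 with DMSO. SAC3D1 had 76.4, 20.9, 11.9 and 112 against 454, 528, 431 and 436 (-3.01 ± 0.37). The thromboxane receptor TBXA2R had -2.94 ± 0.34, by 2 of 3 probe sets, NAV2 -2.91 ± 0.18, the adhesion protein AMIGO2 -2.66 ± 0.15 and INHBE, an activin chain, -2.66 ± 0.23. The zinc and iron importer SLC39A14 (-2.60 ± 0.14), PDE4DIP (-2.50 ± 0.14), the Fc receptor FCGR2A (-2.47 ± 0.33), the integrin activator FERMT2 (-2.44 ± 0.18, 1 of 2 probe sets called), the growth factor IGF1 (-2.35 ± 0.35), the homeobox factor HHEX (-2.32 ± 0.08) and NIBAN1 (-2.30 ± 0.08) fell as well. All these genes had nilotinib arrays below all DMSO arrays.

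**Figure D5:**
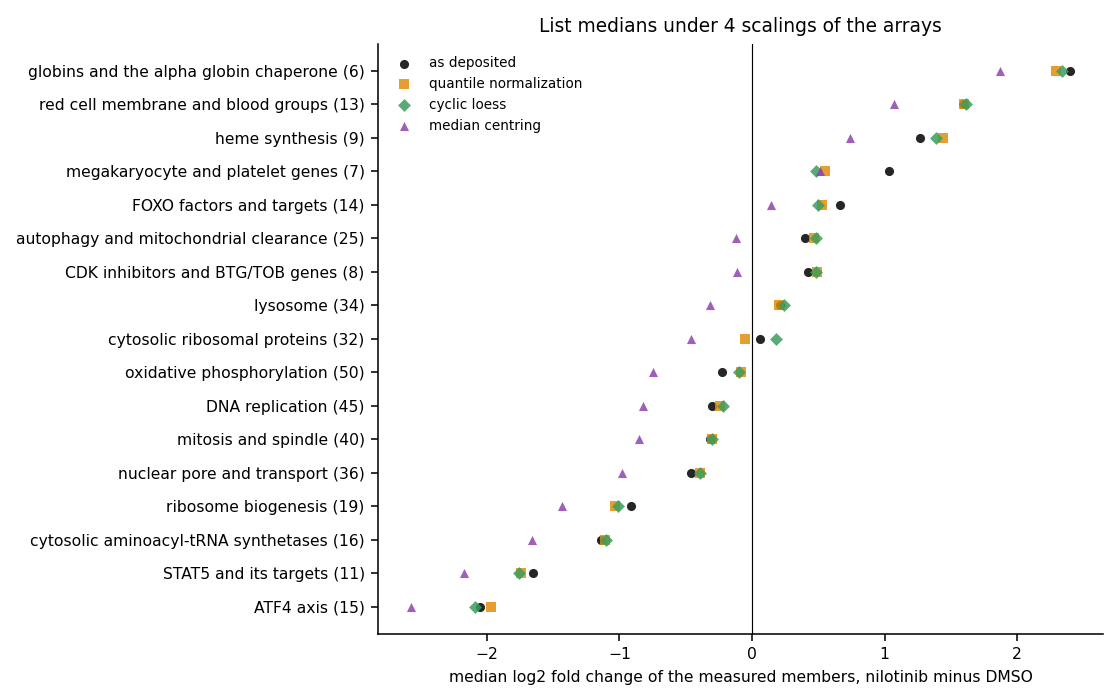
Median log2 fold change of the measured members of 17 gene lists under 4 scalings of the arrays (as deposited, quantile normalization, cyclic loess and median centring). The red cell lists stay to the right of 0 and the STAT5 and ATF4 lists to the left under all 4, whereas the autophagy, CDK inhibitor and lysosome medians turn negative with median centring and the cytosolic ribosomal protein median turns with quantile normalization and median centring.

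Imatinib was given at 0.5 µM, a different dose, and its comparison shares the 4 DMSO arrays with that of nilotinib, so the values are set side by side without a test. ALAS2 had 4.89 ± 0.13 with nilotinib and 4.43 ± 0.13 with imatinib, SLC4A1 3.85 ± 0.10 and 2.89 ± 0.10, CD69 -4.57 ± 0.21 and -4.50 ± 0.21, ASNS -2.89 ± 0.08 and -2.59 ± 0.08, SOCS2 -2.44 ± 0.07 and -2.02 ± 0.07. FABP5 had -2.95 ± 0.27 with nilotinib and -1.35 ± 0.27 with imatinib, SAC3D1 -3.01 ± 0.37 and -0.66 ± 0.37, and TIMM50 -2.22 ± 0.33 and -0.81 ± 0.33. The list medians were 2.40 with nilotinib and 2.58 with imatinib for the globins, -2.05 and -1.69 for the ATF4 list, -1.65 and -1.28 for STAT5 targets and -0.56 and -0.30 for the mitochondrial ribosomal proteins. For the 45 DNA replication genes the median was -0.30 with nilotinib and 0.07 with imatinib, and for the 40 mitosis genes -0.32 and -0.02. The median signal of the imatinib arrays was 134.6 to 154.7, between those of the nilotinib and the DMSO arrays. The part of this in the values set side by side was not tested, and imatinib values under other scalings are not given.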

How the data were processed

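The deposited table holds 1 intensity per probe set and array, a linear MAS5 signal. The authors made it with MAS5, per the submitters' processing notes, with no version given in the sources used here, and the values show a scaling to a common trimmed mean. Of 22277 probe sets 62 controls were left out of the tests. Log2(signal + 16) of 22215 probe sets on 12 arrays was fitted in limma 3.58.1 (R 4.3.3, lmFit and eBayes with a variance trend), with 1 mean per group and 9 residual degrees of freedom, and p-values were adjusted by Benjamini-Hochberg over all probe sets. Of these probe sets 19064 name 1 gene, 1043 several and 2108 none, per the platform annotation. No scanner files were used, so the number of arrays limits the precision. No 2 arrays held identical values.

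Named were the called genes whose groups did not overlap, taken by size of change to 30 in each direction, then at most 5 called genes per direction in a list, then the drug targets and K562 markers. The members and lists were chosen with earlier results of these data known. Alternatives were other pseudocounts (1 and 64), filters (40th and 60th percentile), scalings, array weights, no variance trend, only these 2 groups, a minimum log2 change of 1 (limma's treat), 1 probe set per gene and leaving out arrays. The fit was tested on simulated data. Python 3.11.15 and matplotlib 3.10.9 made the plots.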

Additional observations from a re-analysis of the deposited data

Results flagged for a closer look

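Within a group of 4 arrays, 1 array stood apart for some of the genes named. The gap of the highest or lowest array to its nearest neighbour, divided by the range of the group, was above Dixon's 95% critical value for 4 samples in 29 of 514 tests of a gene in a group. Chance gives about 1 in 20 such tests.

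On nilotinib array 1 the ratio stood out for 8 genes. HBE1 had 0.891 (array 1, signal 22314, others 25972 to 26457). PSPH had 0.973 (array 1, signal 1057, others 688 to 696). MTHFD2 had 0.923 (array 1, signal 2518, others 2212 to 2234). SLC38A1 had 0.855 (array 1, signal 111, others 208 to 231). TXN had 0.883 (array 1, signal 5780.1, others 4593 to 4718). EIF3J had 0.897 (array 1, signal 1656, others 1290.4 to 1324). KLF10 had 0.844 (array 1, signal 2754, others 2188 to 2268). ACTN4 had 0.943 (array 1, signal 704, others 867 to 878).

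On nilotinib array 2 the ratio stood out for 7 genes. DUSP1 had 0.834 (array 2, signal 489, others 652 to 690.5). ETV5 had 0.966 (array 2, signal 52.6, others 168 to 174). CCND2 had 0.893 (array 2, signal 982, others 1188 to 1216). RRS1 had 0.872 (array 2, signal 98.8, others 457 to 567). CCND3 had 0.89 (array 2, signal 6267, others 7415 to 7571). PLAAT4 had 0.864 (array 2, signal 319, others 464 to 492). FERMT2 had 0.831 (array 2, signal 122, others 109 to 111).

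On nilotinib array 3 the ratio stood out for 3 genes. EIF4EBP1 had 0.931 (array 3, signal 677, others 723 to 726). GAA had 0.87 (array 3, signal 325, others 220.0 to 232). IRF7 had 0.896 (array 3, signal 405, others 455 to 461).

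On nilotinib array 4 the ratio stood out for 4 genes. MYC had 0.917 (array 4, signal 3107, others 2843 to 2864). ATF5 had 0.955 (array 4, signal 235, others 356 to 363). ATP5MC1 had 0.896 (array 4, signal 354, others 704 to 762). EPOR had 0.882 (array 4, signal 841, others 1327 to 1410.1).

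Among the DMSO arrays 7 genes stood out. DDX21 had 0.865 (array 12, signal 5912, others 6289 to 6349.8). GART had 0.83 (array 12, signal 1209.5, others 1484 to 1548). SLC2A1 had 0.873 (array 10, signal 1083, others 1020.1 to 1028). ACSL1 had 0.881 (array 11, signal 1631, others 1878 to 1914). EPOR had 0.836 (array 10, signal 469, others 322 to 343). NFASC had 0.838 (array 11, signal 18.3, others 62.0 to 75.5). ID2 had 0.871 (array 12, signal 142, others 91.7 to 97.1).

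All the genes named here were called in the comparison and kept their call when each array in turn was left out. The control probe sets of ribosomal RNA were used in no comparison. Their signal for 18S was 9034 ± 972 (SD, n = 4) with nilotinib and 3293 ± 329 with DMSO, and that for 28S was 4959 ± 295 and 1509 ± 261 (exact permutation test, two-sided, p = 0.0286 for each, the smallest that 4 against 4 can give). The nilotinib arrays all lay above the DMSO arrays, and the part of this difference in the other results was not tested.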

How the results depend on the processing

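No paired analysis was possible because the groups compared share no replicate numbers. Leaving out 1 array at a time gave 5107 to 6211 probe sets higher and 2608 to 2833 lower. The number higher was 2855 above the 60th percentile, 2969 with quantile normalization, 3092 with cyclic loess, 1424 with median centring, 284 for a change of more than 1 and 2781 with 1 probe set per gene. The number lower was 6255 with median centring, 199 for a change of more than 1 and 1885 with 1 probe set per gene. The last counts are lower because fewer probe sets were tested. Of 59 list medians 43 kept their direction under every alternative run. With median centring, which shifts all values by -0.52, the median turned to -0.05 for iron handling, -0.20 for drug targets, -0.41 for adaptors, -0.42 for PI3K, AKT and mTOR, -0.43 for the G1 list, -0.11 for CDK inhibitors, -0.22 for the BCL2 family, -0.46 for cytosolic ribosomal proteins, -0.32 for the lysosome, -0.12 for autophagy and -0.38 for hypoxia. Quantile normalization turned it to -0.02 for KLF factors, -0.09 for PI3K, AKT and mTOR, -0.11 for the G1 list, -0.05 for cytosolic ribosomal proteins, 0.04 for the proteasome and -0.13 for hypoxia. Cyclic loess turned it to -0.03 for KLF factors, -0.11 for PI3K, AKT and mTOR, -0.07 for the G1 list and -0.13 for hypoxia. Above the 60th percentile it was -0.12 for granulocyte and monocyte markers, -0.05 for fibroblast, epithelial and endothelial markers, -0.02 for adaptors and -0.08 for PI3K, AKT and mTOR. Without the arrays of high actin ratio it was 0.04 for glutathione and NRF2 targets. For these turns the cause was not tested beyond the shift itself. Of the named genes 257 were checked in this way, and BCL2, CDKN2A and ALDH1L1 were not among them. Of these 257 genes, 248 kept their direction and call under every alternative in which they had a value, other than the minimum change. Under the minimum change 130 were called. The filter at the 60th percentile left 228 of the 257. Median centring turned BCR to -0.08, ABL1 to -0.16, KIT to -0.24, GATA1 to -0.31, TFRC to -0.20 and CDKN1B to -0.13. Fold changes of dim genes are limited by the 16 added to each signal and by the number of arrays.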
